A study of Mus musculus with 10 samples.

Results

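Mitochondria keep a small circular genome of their own, and this account follows the RNAs that are read from it. The 9 transcripts described are both ribosomal RNAs, mt-Rnr1 and mt-Rnr2, and the mRNAs mt-Nd1, mt-Nd2, mt-Co1, mt-Nd4, mt-Nd5, mt-Nd6 and mt-Cytb, taken by name from a table of 26401 genes. They are the members of the mitochondrial genome with more than a trace of counts: the table holds 27 of its 37 annotated genes, and the other 18 of these had between 0 and 68 counts in any library. RNA came from 10 populations of immortalized mouse embryonic fibroblasts, connective tissue cells grown from embryos, on a C57Bl/6N background. All 10 carry the mitochondrial mutation m.5024C>T beside normal mitochondrial genomes, a state called heteroplasmy. A high mutant share was recorded for 5 populations, called high 1 to high 5, and a low one for the other 5, called low 1 to low 5, each with a clone number of its own. The share itself is not stated for any population in what was used here. Every population grew in high glucose medium (4.5 g/dL) with 10% serum and 50 µg/ml uridine, and none was treated. No population free of the mutation was included. Each population gave 1 library. The labels call the populations biological replicates but do not say how the clones arose, so p values measure the spread between these populations.

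Both strands of mitochondrial DNA are transcribed into long RNAs, from which the transfer RNAs are cut out and so release the ribosomal RNAs and mRNAs between them. The ribosomal RNAs lie nearest the start of the long transcript of one strand and build the mitochondrial ribosome, while the mRNAs encode core subunits of the respiratory chain. After cutting, most of these RNAs receive a short tail of A residues, and in several mRNAs this tail completes a stop codon that the DNA does not spell out. In human cells the mRNA for ND6, the one mRNA read from the other strand, lacks such a tail. RNA for these libraries was selected by its poly(A) tail, and the kit keeps strand.

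The 9 genes lie on the mitochondrial chromosome of GRCm38 in the order mt-Rnr1 (ENSMUSG00000064337, 70 to 1024), mt-Rnr2 (ENSMUSG00000064339, 1094 to 2675), mt-Nd1 (ENSMUSG00000064341, 2751 to 3707), mt-Nd2 (ENSMUSG00000064345, 3914 to 4951), mt-Co1 (ENSMUSG00000064351, 5328 to 6872), mt-Nd4 (ENSMUSG00000064363, 10167 to 11544), mt-Nd5 (ENSMUSG00000064367, 11742 to 13565), mt-Nd6 (ENSMUSG00000064368, 13552 to 14070) and mt-Cytb (ENSMUSG00000064370, 14145 to 15288). Each is a single exon. All are on the plus strand except mt-Nd6, which is on the minus strand and overlaps the end of mt-Nd5 by 14 bases. The mutation lies in mt-Ta, the gene of the mitochondrial alanine transfer RNA, on the minus strand between mt-Nd2 and mt-Co1. Its whole sequence follows, 5′ to 3′ from GENCODE M21 for GRCm38, to show where the mutated position falls. The capital marks position 63 of the 69 bases, which is position 5024 of the genome read on the other strand.
mt-Ta (chrM:5018-5086, minus strand): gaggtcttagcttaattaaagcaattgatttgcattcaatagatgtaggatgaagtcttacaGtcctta
The mt-Ta gene itself had 0 to 4 counts per library, so neither its level nor its mutant share was measurable here.

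The ends of the transcripts are shown because poly(A) capture acts there. The last 30 bases of 5 genes are given, with capitals on what is left of the stop codon ahead of the next gene.
mt-Nd1 (chrM:3678-3707): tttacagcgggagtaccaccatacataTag
mt-Co1 (chrM:6843-6872): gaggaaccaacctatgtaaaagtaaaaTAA
mt-Nd4 (chrM:11515-11544): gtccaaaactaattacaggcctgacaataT
mt-Cytb (chrM:15259-15288): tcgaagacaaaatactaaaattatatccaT
mt-Nd6 (chrM:13552-13581, minus strand): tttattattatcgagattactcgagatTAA
mt-Nd4 and mt-Cytb end 1 base into a codon, on a T. In mt-Nd1 the annotated last 2 bases belong also to the next transfer RNA, mt-Ti, and without them it too ends on a lone T, as does mt-Nd2 before mt-Tw. mt-Co1, mt-Nd5 and mt-Nd6 end in a complete TAA.

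Runs of A inside a transcript are a second feature that poly(A) capture could touch, and they differ between the ribosomal RNAs. A window of 40 bases around the longest run of A in each is given, with the run in capitals.
mt-Rnr1 (chrM:688-727): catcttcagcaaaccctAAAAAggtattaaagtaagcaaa
mt-Rnr2 (chrM:1472-1511): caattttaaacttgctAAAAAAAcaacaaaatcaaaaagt
The longest run was 5 in mt-Rnr1 and 7 in mt-Rnr2, which holds 4 runs of at least 6 A against 0 in mt-Rnr1. The share of A was alike, 37.8% in mt-Rnr1 and 38.2% in mt-Rnr2. Among the mRNAs the longest run was 3 in mt-Nd6, 5 in mt-Cytb and 8 in mt-Nd2.

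High libraries held 19264064 to 28208576 counts, and low libraries 17318372 to 24967748. The 9 transcripts together took 3.11% ± 1.35 of the counts in high libraries and 2.1% ± 0.72 in low libraries (n = 5 each, SD), with 5.29% in high 1 as the largest and 1.09% in low 3 as the smallest share. All 10 fibroblast markers were in the table and their summed level was 10028 to 19300 CPM (counts scaled to a common library total, here the raw one) in high and 11064 to 13580 CPM in low libraries. Of these 10 markers only 6 were above 1 CPM in every library. The 4 endothelial markers summed to at most 1.4 CPM in any library, with 2 of them at 0 throughout. The 4 epithelial markers summed to 0.0391 to 0.934 CPM in high and 0.898 to 5.95 CPM in low libraries, and the 4 neural and glial markers to 4.15 to 10.9 CPM in high and 12.1 to 32.7 CPM in low libraries, with 1 of them at 0 throughout. Muscle markers (3 of 4 in the table) summed to 4.43 to 25.2 CPM in high and 2.25 to 5.31 CPM in low libraries, and blood markers (2 of 4) to 12.5 to 91.9 CPM in high and 11.8 to 24.9 CPM in low libraries. The part of these cell markers in the results was not tested. Low 2 and low 3 stood apart in several RNAs that lack a long poly(A) tail, though not in all of those tested. The ribosomal RNA-like Gm42418 was at 745 to 1154 CPM in the high libraries, against 1148, 1557 and 1616 CPM in low 1, low 4 and low 5, 8017 CPM in low 3 and 40941 CPM in low 2 (here and below, CPM are scaled by TMM, a correction for the make-up of each library). Several of the results that follow are therefore also given without low 2 and low 3. Fewer cells and less RNA per cell cannot be told apart in these data.

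mt-Rnr2, the RNA of the large mitochondrial ribosomal subunit, was about 2-fold higher in the high heteroplasmy populations. It had 5253, 6115, 7556, 4838 and 5070 CPM in high 1 to high 5, against 2858, 2787, 1704, 3258 and 3880 CPM in low 1 to low 5. Every high library was above every low library, and the nearest were high 4 and low 5. Its log2 fold change was 0.99 (SE 0.22, adjusted p = 0.0326, edgeR quasi-likelihood test). It was the only 1 of the 9 transcripts to pass, and the only 1 whose groups did not overlap, where 4.86% of all 12964 tested genes passed (1.99% as rises) and 7.17% did not overlap. The rise was already known from earlier results of these data. Of 10 fits with a library removed, 6 no longer called it. With high 2 removed edgeR's adjusted p was 0.0607, with high 3 removed it was 0.0724, and with low 1, low 2, low 3 and low 4 removed it was 0.0698, 0.0722, 0.0538 and 0.0616. Without low 2 and low 3 together the log2 fold change was 0.81 (adjusted p = 0.125).

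mt-Rnr1, the RNA of the small ribosomal subunit, was lower on average in the high populations, short of the threshold. It had 655, 398, 333, 526 and 264 CPM in high 1 to high 5, against 923, 1032, 469, 1146 and 620 CPM in low 1 to low 5. The groups overlapped, since low 3 lay below high 4 and high 1, and low 5 below high 1. Its log2 fold change was -0.95 (SE 0.30) and missed the threshold in edgeR (adjusted p = 0.0901). DESeq2 called it (adjusted p = 0.0198, where DESeq2 called 11.4% of tested genes), edgeR called it without high 1 (-1.14, adjusted p = 0.0464), and limma-voom did not call it (5.3% of tested genes called). As a fall it stands beside 2.87% of tested genes called lower in edgeR. Without low 2 and low 3 its log2 fold change was -1.03 (edgeR adjusted p = 0.151). It was the 1 of the 9 transcripts with a negative log2 fold change. The median of the 9 was 0.55, against 0.02 over all tested genes, of which 52.3% were positive. It was 0.13 without high 1 and 0.25 without low 2 and low 3.

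Of the RNAs without a long poly(A) tail, 12 of 20 listed were tested. The median log2 fold change of the 12 was -1.28, and 11 were negative. In edgeR 0 of them passed, with 5 at an unadjusted p under 0.05, as were 2804 of all 12964 tested genes. DESeq2 called 5, where it called 11.4% of all tested genes, and limma-voom called 0. Rpph1, the RNA of ribonuclease P, was at -3.58 (adjusted p = 0.0595), Gm42418 at -3.53 (0.0644), Rn7sk, which restrains transcription elongation, at -3.46 (0.0748) and Rmrp, the RNA of ribonuclease MRP, at -4.19 (0.0924). Their highest value was in low 2 for all 4, and low 1 lay below the highest high library for all 4. Rmrp had 96.3 CPM in low 2 and 15.6 CPM in low 3. In low 1, low 4 and low 5 it had 0.68, 2.22 and 0.71 CPM, against 0.81 to 1.97 CPM in the high libraries. The other 8, which were Hist1h1b, Hist1h1c, Hist1h1d, Hist1h1e, Hist1h2ae, Hist1h4d, Gm26917 and Scarna2, lay between -2.12 for Hist1h1e and 0.37 for Hist1h1c, with edgeR adjusted p of 0.105 to 0.764. The 12 summed to 923 to 1726 CPM in high libraries and 1580 to 42235 CPM in low libraries, and none of the 12 was at 0 in a library. Gm42418 made up most of that sum in low 2, and without it the other 11 summed to 179 to 774 CPM in high and 344 to 1294 CPM in low libraries, which overlap. As a share of the counts on the 9 mitochondrial transcripts, mt-Rnr1 was at 1.11% to 1.82% in high libraries, against 3.12%, 5.76%, 4.15%, 4.79% and 2.52% in low 1 to low 5. That share was highest in low 2, the library richest in Gm42418. In low 3, the next richest, it was 4.15%, below the 4.79% of low 4. The part of these RNAs in the mt-Rnr1 and mt-Rnr2 values was not tested.

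**Figure D1:**
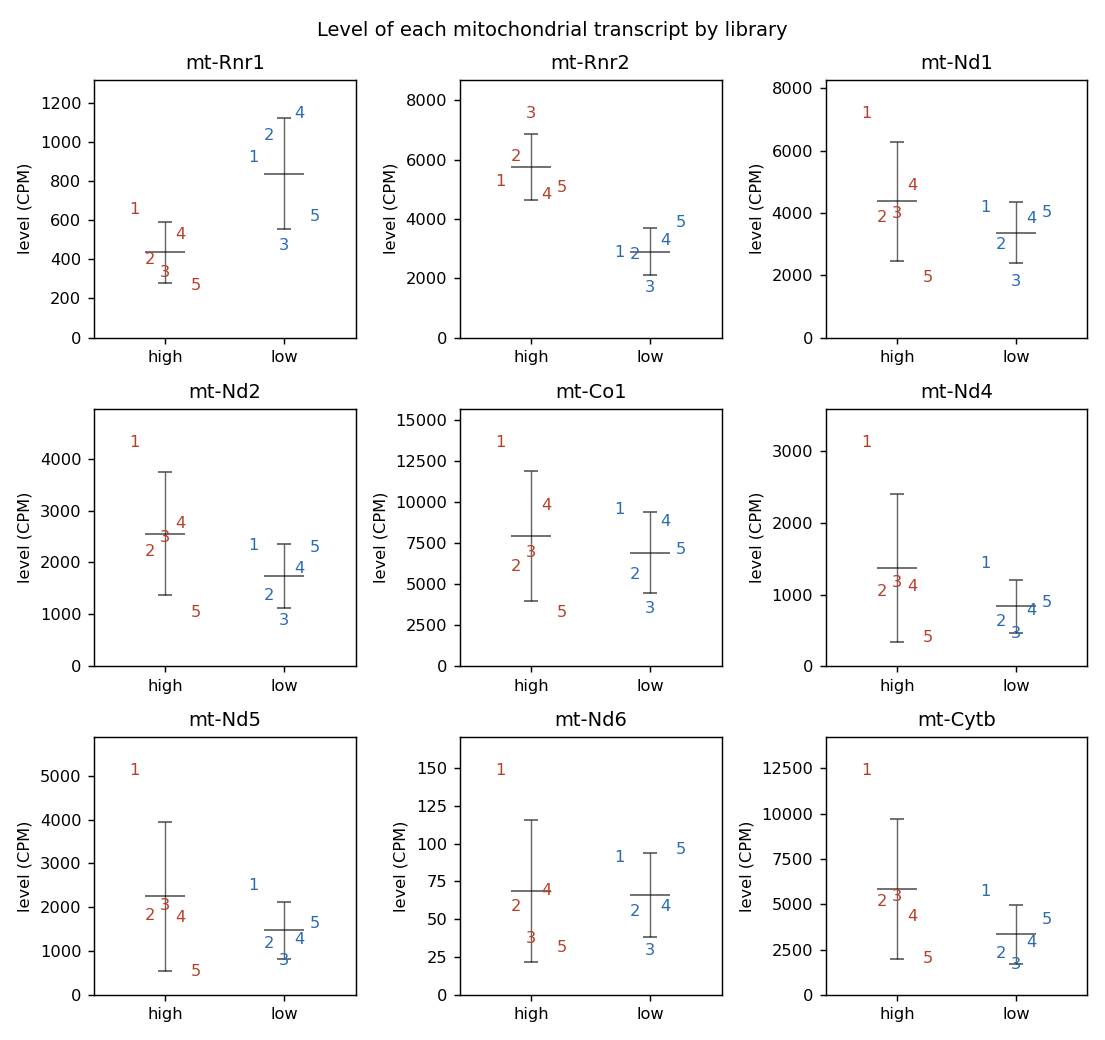
Level of the 9 mitochondrial transcripts in CPM (counts scaled to a common library total, with TMM) in the high and low heteroplasmy libraries. Each digit is 1 library at its replicate number, and bars give the mean ± SD (n = 5 each). Only for mt-Rnr2 do all high libraries lie above all low libraries, from 4838 against at most 3880 CPM, and high 1 is the highest high library in all 7 mRNAs.

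The mRNAs varied widely among clones of 1 group. All 7 had a positive log2 fold change in edgeR with all libraries, where mt-Co1 and mt-Nd6 turned negative in some other fits. edgeR, DESeq2 and limma-voom called none of them. In edgeR 0 reached an unadjusted p under 0.05, where 2804 of all 12964 tested genes did. mt-Cytb, which encodes the cytochrome of complex III, had 12369, 5130, 5416, 4303 and 1997 CPM in high 1 to high 5, against 5727, 2301, 1657, 2881 and 4137 CPM in low 1 to low 5. Its log2 fold change of 0.81 (SE 0.46, adjusted p = 0.338) was the largest of the mRNAs, and it was 0.34 without high 1 and 0.47 without low 2 and low 3. mt-Co1, the catalytic subunit of cytochrome c oxidase, had 13626, 6077, 6890, 9769 and 3279 CPM in high 1 to high 5, against 9542, 5588, 3518, 8827 and 7084 CPM in low 1 to low 5. The groups shared most of their range, and the log2 fold change was 0.20 (SE 0.37, adjusted p = 0.813) and turned to -0.09 without high 1, and also to -0.09 without low 2 and low 3.

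The remaining mRNAs encode subunits of complex I, the entry point of NADH electrons. mt-Nd1 averaged 4367 ± 1908 CPM in high and 3358 ± 981 CPM in low libraries, with a log2 fold change of 0.38. mt-Nd2 was at 2557 ± 1183 CPM in high and 1746 ± 618 CPM in low libraries, and its log2 fold change was 0.55. mt-Nd4 was at 1373 ± 1029 CPM in high and 834 ± 372 CPM in low libraries, a log2 fold change of 0.72. In each of these the high mean lay within 1 SD of the high group from the low mean. mt-Nd5 was at 2254 ± 1704 CPM in high and 1469 ± 647 CPM in low libraries, a log2 fold change of 0.62. These 4 fold changes were smaller without high 1, at 0.13 for mt-Nd1, 0.28 for mt-Nd2, 0.17 for mt-Nd4 and 0.07 for mt-Nd5. Without low 2 and low 3 they were 0.14, 0.25, 0.42 and 0.34 in the same order. mt-Nd6 was at 68.8 ± 47.0 CPM in high and 65.9 ± 27.8 CPM in low libraries (SD, n = 5 each). Its log2 fold change of 0.06 turned negative without high 1 (-0.43), low 3 (-0.13) or both low 2 and low 3 (-0.24).

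High 1 had the most and high 5 the least of all 7 mRNAs and of mt-Rnr1 within the high group, so that 8 of the 9 transcripts shared both extremes. mt-Rnr2 did not follow: its highest library was high 3 and its lowest high 4. In the low group low 3 was the lowest library for all 9 transcripts, and low 1 the highest for 6 of the 7 mRNAs. mt-Nd5 spanned 9.45-fold among the high clones and 3.16-fold among the low clones, the widest range in the high group. mt-Rnr2 spanned 1.56-fold among the high and 2.28-fold among the low clones. Pooled over the groups, the SD of log2 CPM was 0.36 for mt-Rnr2 and 0.53 for mt-Rnr1. For the plus strand mRNAs it was 0.60 for mt-Nd1, 0.67 for mt-Nd2, 0.68 for mt-Co1, 0.86 for mt-Nd4, 0.92 for mt-Nd5 and 0.83 for mt-Cytb. The 3 plus strand mRNAs later in genome order thus varied more than the 3 earlier ones. The median tested gene had an SD of 0.37.

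**Figure D2:**
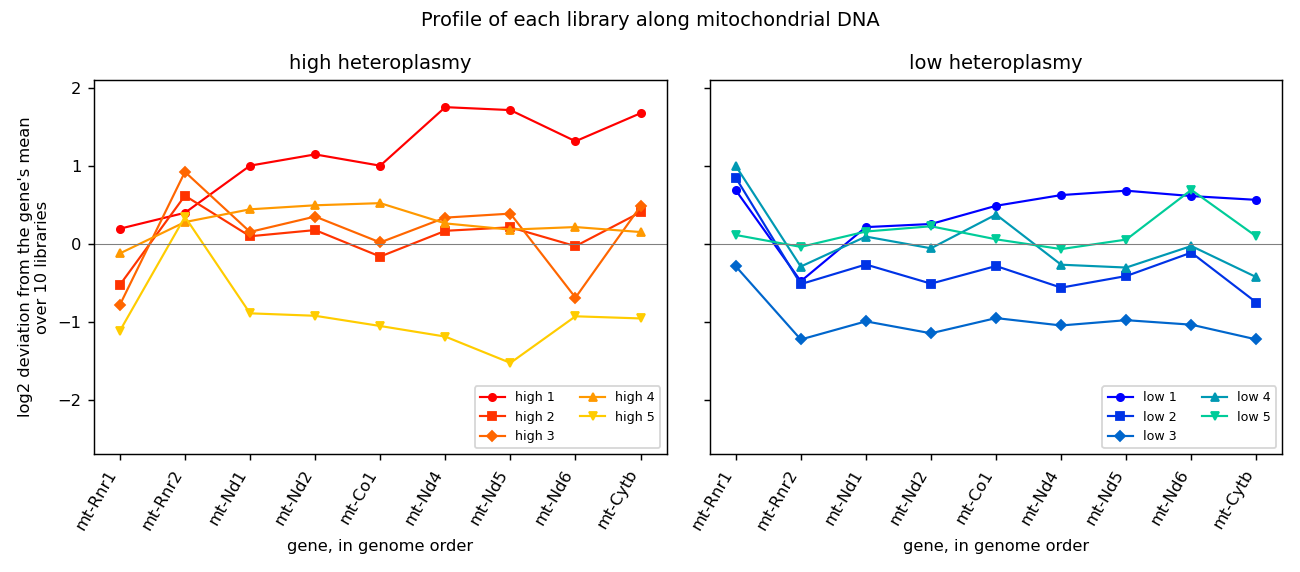
Profile of each library along mitochondrial DNA: the log2 deviation of each transcript's CPM from its mean over the 10 libraries, with genes in genome order and 1 line per library. The lines of the 3 mRNAs mt-Nd4, mt-Nd5 and mt-Cytb run farthest apart in the high group, from 1.75 in high 1 to -1.53 in high 5, while mt-Rnr2 lies above 0 in all high and below 0 in all low libraries.

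Ratios within a library do not depend on how libraries are scaled, and all 36 pairs of the 9 transcripts were compared between the groups. In 5 pairs the groups did not overlap (13.9%), and mt-Rnr1 was the denominator in all 5. mt-Rnr2 had 8.02, 15.4, 22.7, 9.20 and 19.2 counts per count of mt-Rnr1 in high 1 to high 5, against 3.10, 2.7, 3.63, 2.84 and 6.26 in low 1 to low 5. The mean log2 ratio was 3.78 ± 0.66 in high and 1.82 ± 0.49 in low libraries, a difference of 1.97. mt-Nd1 had 10.97, 9.66, 11.99, 9.27 and 7.33 counts per count of mt-Rnr1 in high 1 to high 5, against 4.51, 2.89, 3.84, 3.34 and 6.46 in low 1 to low 5. The gap between high 5 and low 5 was small, and the mean log2 ratios differed by 1.26. The other 3 such pairs set mt-Nd2, mt-Co1 and mt-Cytb over mt-Rnr1, with differences of 1.44, 1.07 and 1.65.

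By exact permutation (two-sided), all 5 pairs reached p = 0.00794, which is the lowest value possible with 5 libraries in each group. Adjusted over the 36 pairs this was 0.0571, so 0 of 36 pairs passed (0% of the pairs, with 14 at an unadjusted p under 0.05 and also 0 passing by the difference of medians). At that lowest p, at least 6 pairs were needed for any to pass, so full separation could not by itself make a pair pass. The pair mt-Rnr2 over mt-Rnr1 was known from earlier results of these data, so its size is no independent evidence. Without low 2 and low 3 its difference was 1.85 (exact permutation p = 0.0179, adjusted p = 0.214). That p is again the lowest value possible, now with fewer libraries, so its rise does not show a weaker difference.

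Set against mt-Rnr2, as against mt-Rnr1, none of the mRNAs passed, but the signs were opposite. High minus low, the log2 ratios of the 6 plus strand mRNAs to mt-Rnr2 differed by between -0.90 for mt-Co1 and -0.32 for mt-Cytb, with exact permutation p values of 0.0794 to 0.468 (adjusted p of 0.159 to 0.527). mt-Nd1 had 1.37, 0.63, 0.53, 1.01 and 0.38 counts per count of mt-Rnr2 in high 1 to high 5, against 1.46, 1.07, 1.06, 1.18 and 1.03 in low 1 to low 5. The low clones were alike in this ratio, with an SD of 0.20 on the log2 scale, and the high clones were not, with an SD of 0.74. Summed, the 2 ribosomal RNAs had 0.129 to 0.580 counts per count of the 6 plus strand mRNAs in high and 0.147 to 0.272 in low libraries, with high 5 at the top. mt-Rnr1 made up 1.49% ± 0.30 of the counts on the 9 transcripts in high libraries and 4.07% ± 1.29 in low libraries (n = 5 each, SD). mt-Rnr2 made up 21.9% ± 9.4 in high libraries and 13.9% ± 2.5 in low libraries.

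**Figure D3:**
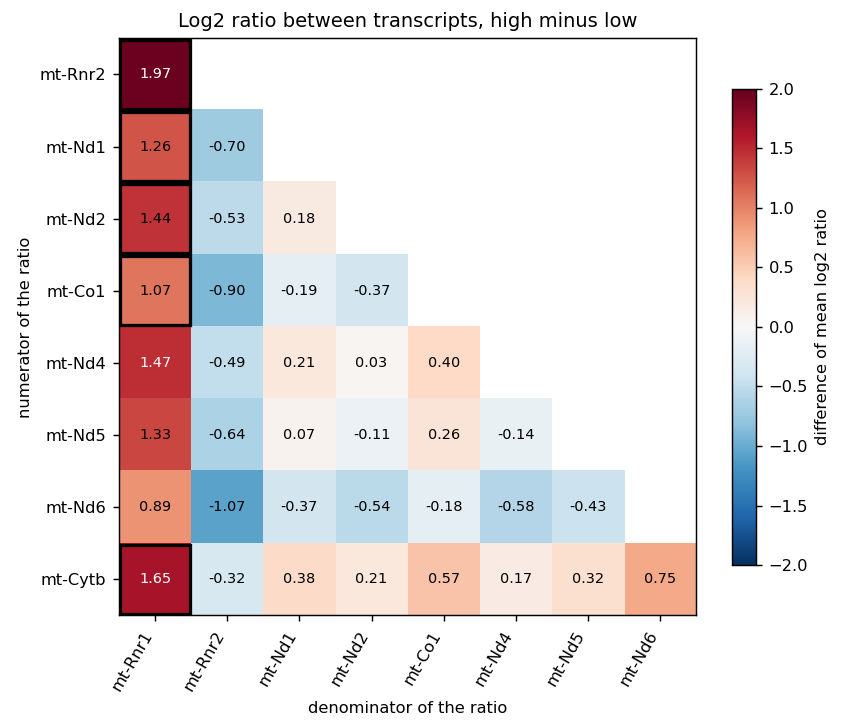
Difference of the mean log2 ratio, high minus low, for the 36 pairs of mitochondrial transcripts, with the numerator in rows and the denominator in columns. Frames mark the 5 pairs whose groups do not overlap, all in the mt-Rnr1 column, where the differences run from 0.89 to 1.97.

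By genome order the mRNAs of the plus strand form an earlier set (mt-Nd1, mt-Nd2 and mt-Co1) and a later set (mt-Nd4, mt-Nd5 and mt-Cytb). Ratios varied less within these sets than between them, as a description with no test. The genome is a circle, so this order is not distance from the ribosomal RNAs. The log2 ratio of mt-Nd2 to mt-Nd1 had a pooled within-group SD of 0.11, that of mt-Co1 to mt-Nd1 one of 0.16 and that of mt-Co1 to mt-Nd2 one of 0.19. In the later set mt-Nd5 to mt-Nd4 was at 0.12, mt-Cytb to mt-Nd4 at 0.16 and mt-Cytb to mt-Nd5 at 0.20. Being next in order among the 6 did not by itself go with a small SD, since mt-Nd4 to mt-Co1 was at 0.35. Pairs that join mt-Nd1, mt-Nd2 or mt-Co1 with mt-Nd4, mt-Nd5 or mt-Cytb had SDs between 0.29 for mt-Cytb to mt-Nd2 and 0.43 for mt-Nd5 to mt-Co1. mt-Cytb had 1.72, 1.34, 1.357, 0.88 and 1.03 counts per count of mt-Nd1 in high 1 to high 5, against 1.38, 0.77, 0.92, 0.75 and 1.03 in low 1 to low 5. High 1 and low 1 lay at the top of their groups, and the groups overlapped (difference 0.38, exact permutation p = 0.167, adjusted p = 0.25). Of the 15 pairs of these 6 mRNAs 0 passed, with 4 at an unadjusted p under 0.05, and the differences ran from -0.37 to 0.57.

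mt-Nd6 was the single mRNA on the minus strand. Its log2 ratios to the other mRNAs had pooled SDs of 0.35 to 0.48, which overlap those between the earlier and later plus strand mRNAs. mt-Cytb, which lies beyond the transfer RNA gene mt-Te from it, had 83.5, 87.9, 147, 62.2 and 63.8 counts per count of mt-Nd6 in high 1 to high 5, against 62.9, 41.8, 57.1, 49.3 and 43.0 in low 1 to low 5. High 3 stood highest, and low 1 reached just above high 4. The difference of 0.75 on the log2 scale did not pass after adjustment (exact permutation p = 0.0159, adjusted p = 0.0816). The log2 ratios of mt-Nd6 to the other 5 plus strand mRNAs differed by -0.58 to -0.18 between the groups. Of these 6 pairs 0 passed, with 3 at an unadjusted p under 0.05. The kit keeps strand, but no source used here states whether the counting used it, so reads from RNA opposite mt-Nd6 may be among its counts.

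**Figure D4:**
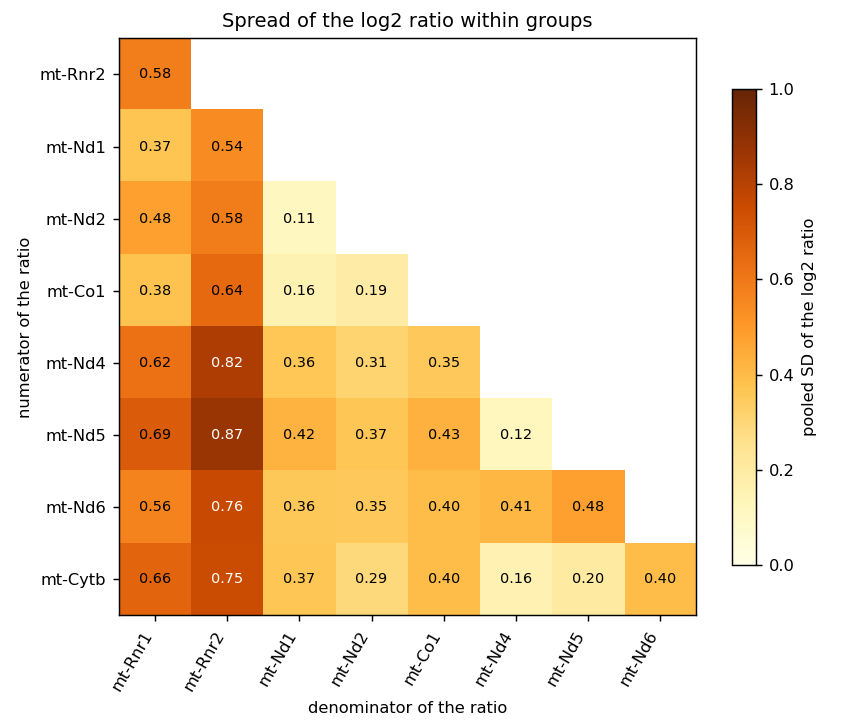
Pooled within-group SD of the log2 ratio for the 36 pairs of mitochondrial transcripts, numerator in rows and denominator in columns. The palest cells, at 0.11 to 0.20, are the pairs within mt-Nd1, mt-Nd2 and mt-Co1 and within mt-Nd4, mt-Nd5 and mt-Cytb, and the darkest, at 0.87, is mt-Nd5 with mt-Rnr2.

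Over all 12964 tested genes and the 10 libraries, the gene most alike to each plus strand mRNA was another of these mRNAs, for 6 of 6. Likeness was Pearson's r of log2 CPM, given as a description, since the libraries share their groups and depth with every gene. mt-Nd4 and mt-Nd5 were nearest to each other (r = 0.99), mt-Nd1 and mt-Nd2 likewise (0.99), mt-Co1 was nearest to mt-Nd1 (0.96) and mt-Cytb to mt-Nd4 (0.98). The nearest nuclear genes of these were Lhfpl4 for mt-Nd1 (0.96), Atp5c1, which encodes a subunit of ATP synthase, for mt-Nd2 (0.96), Gm38211 for mt-Co1 (0.95), Ropn1l for mt-Nd4 (0.97), Ap4m1 for mt-Nd5 (0.97) and Mcee for mt-Cytb (0.93). The other 3 transcripts were nearest to nuclear genes: mt-Rnr1 to March7 (0.95), mt-Rnr2 to Rcan2, a regulator of calcineurin (0.96), and mt-Nd6 to Pan3, a subunit of a deadenylase (0.97). Rcan2 averaged 0.36 CPM in low libraries and itself differed between the groups (log2 fold change 6.11, edgeR adjusted p = 0.015), as did mt-Rnr2. For mt-Nd6 the nearest mitochondrial transcript, mt-Nd1, came 44th in the order (r = 0.86). For mt-Rnr2 it was mt-Nd2 (0.57). Between mt-Rnr1 and mt-Rnr2 r was -0.52 over the 10 libraries, which includes their opposite differences between the groups. Within the low group both were lowest in low 3, while in the high group their lowest libraries differed.

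Levels of different genes can be compared per length. Nuclear DNA holds copies of parts of the mitochondrial genome, and reads from near-identical stretches may not have been assigned. Annotated nuclear transcripts of at least 99% identity cover 483 of the 1545 bases of mt-Co1 (Gm29216 on chromosome 1) and 876 of the 1378 bases of mt-Nd4 (Gm28439), and none of the other 7. They also cover nearly the whole of mt-Atp6, mt-Co2, mt-Nd4l, mt-Nd3 and mt-Co3, which with mt-Atp8 are the 6 mRNAs at 0 to 2 counts per library. mt-Atp8 itself had 0 to 1 counts and 0 bases in such a copy. Copies outside annotated transcripts were not searched, and any on chromosome 18 were left out of these counts. Per kb of the remaining length, mt-Co1 had the highest mean, at 7465 ± 3706 CPM per kb in high and 6508 ± 2301 CPM per kb in low libraries. mt-Rnr2 was above it in high 5, at 3205 against 3088 CPM per kb. Over the annotated length mt-Co1 averaged 5132 CPM per kb in high libraries and exceeded mt-Cytb in 2 of 5 of them. mt-Cytb (5108 ± 3398 in high and 2920 ± 1413 CPM per kb in low libraries), mt-Nd1 (4563 ± 1994 in high, 3509 ± 1025 in low) and mt-Rnr2 (3645 ± 702 in high, 1832 ± 503 in low) followed in the high group. In the high group mt-Cytb exceeded mt-Nd1 in 3 of 5 libraries and mt-Nd1 exceeded mt-Rnr2 in 3 of 5, so these neighbours did not differ beyond their spread. mt-Nd4 (2735 ± 2049 in high and 1661 ± 742 CPM per kb in low libraries) and mt-Nd2 (2463 ± 1140 in high, 1682 ± 596 in low) were also not ordered, with mt-Nd4 above mt-Nd2 in 1 of 5 high libraries.

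At the low end, mt-Nd5 had 1236 ± 934 CPM per kb in high and 805 ± 355 in low libraries, and mt-Rnr1 456 ± 164 CPM per kb in high and 878 ± 298 in low libraries. mt-Nd5 was above mt-Rnr1 in 5 of 5 high libraries, whereas in the low group mt-Rnr1 was above mt-Nd5 in 3 of 5. mt-Nd6 was last in all 10 libraries, at 132 ± 91 CPM per kb in high and 127 ± 53 in low libraries (SD, n = 5 each). Taken over the annotated length instead, mt-Nd4 was at 997 ± 747 CPM per kb in high and 605 ± 270 in low libraries, below mt-Nd5.

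**Figure D5:**
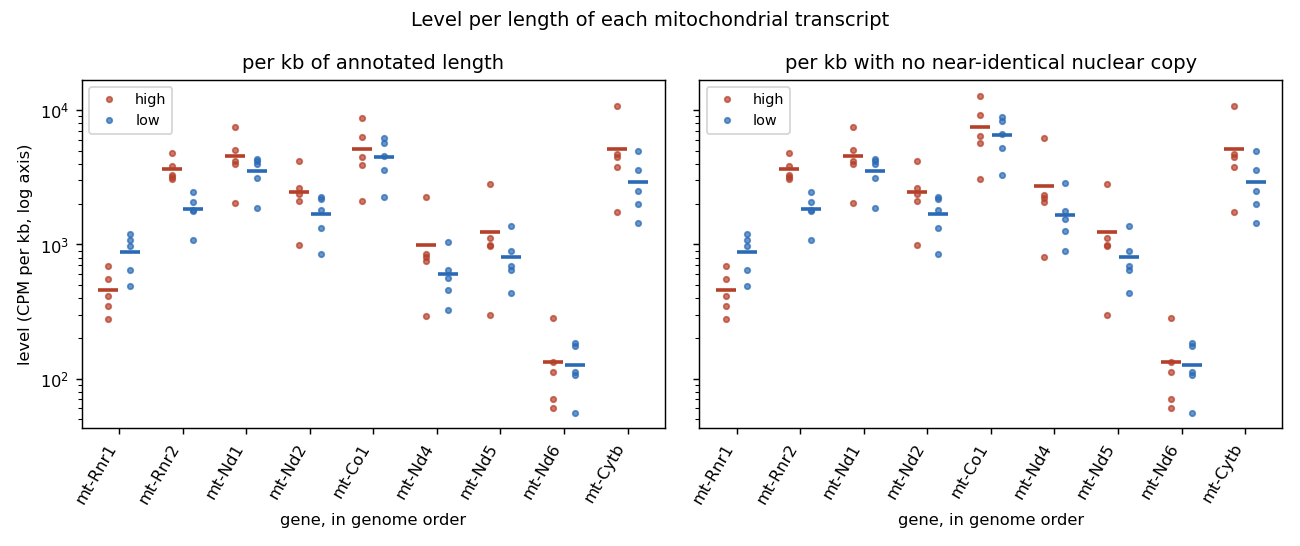
Level per length of each mitochondrial transcript (CPM per kb, log axis) for each high and low library, with a bar at the group mean, over the annotated length (left) and over the length without near-identical nuclear copies (right). mt-Nd6 lies lowest in all libraries on both scales, and the mt-Nd4 mean of the high group moves from 997 to 2735 CPM per kb between the scales.

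Transfer RNA genes gave few counts, and 4 of the 12 in the table had a mean of at least 10 counts per library. These were mt-Tq, mt-Tw, mt-Tt and mt-Tp, with 5 to 68 counts each. Their log2 fold changes were -1.16, 0.12, -0.06 and -0.18, and none passed in edgeR (unadjusted p of 0.12 to 0.895). The remaining 8, among them mt-Ta, had 0 to 5 counts.

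Nuclear genes for the transcription, processing and ribosomal assembly of mitochondrial RNA were called in edgeR at a share near that of all tested genes. Of 51 genes in 3 lists, all tested, 1 rose and 1 fell in edgeR, where 4.86% of all tested genes were called. Both belong to the 24 genes for the modification and assembly of mitochondrial ribosomal RNA. Ddx28, an RNA helicase of large subunit assembly, had 16.3, 19.8, 22.6, 28.8 and 17.8 CPM in high 1 to high 5, against 37.4, 41.1, 44.4, 36.4 and 33.6 CPM in low 1 to low 5. Its log2 fold change was -0.87 (SE 0.18, adjusted p = 0.0226), and 7 of 10 fits with a library removed still called it. Rpusd3, a pseudouridine synthase family member that in human cells acts with the large ribosomal RNA, had 17.5, 19.0, 17.1, 15.0 and 17.97 CPM in high 1 to high 5, against 10.0, 10.5, 9.80, 11.003 and 10.6 CPM in low 1 to low 5. Its log2 fold change was 0.74 (SE 0.15, adjusted p = 0.0249), and 5 of those 10 fits still called it. The groups did not overlap for either gene, where 7.17% of all tested genes did not overlap. Neither was called without low 1, low 2 or low 3, and the highest adjusted p over the 10 edgeR fits was 0.0569 for both. Ddx28 alone was called without high 2 or high 3. Ddx28 lies on chromosome 8 and Rpusd3 on chromosome 6. Ybey, an endoribonuclease, had a log2 fold change of 0.75 that edgeR did not call (adjusted p = 0.103), although its groups did not overlap and DESeq2 called it (adjusted p = 0.0278). DESeq2 thus called 3 of the 51 and limma-voom 2, where they called 11.4% and 5.3% of all tested genes.

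Of the 8 genes for mitochondrial transcription and the 19 for RNA processing and stability, edgeR called 0, as did DESeq2 and limma-voom. An unadjusted edgeR p under 0.05 was reached by 1 transcription and 2 processing genes, and by 2804 of all 12964 tested genes. Polrmt, the mitochondrial RNA polymerase, was at 94.2 ± 27.1 CPM in high and 66.1 ± 6.4 CPM in low libraries, a log2 fold change of 0.51 (adjusted p = 0.141). Mterf2, of the termination factor family, was at 0.47, and Mterf1b, whose counts are uncertain because it has a near copy in Mterf1a, at -0.60. Among the processing genes Supv3l1, the helicase of mitochondrial RNA decay, was at 0.41 (adjusted p = 0.181) and Pnpt1, the exoribonuclease that works with it, at -0.74 (adjusted p = 0.182). Elac2, which cuts the 3′ ends of transfer RNAs, was at 0.45. The median log2 fold changes of the 3 lists were 0.10 for transcription, 0.02 for processing and 0.03 for ribosomal RNA assembly, against 0.02 over all tested genes.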

How the data were processed

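Polyadenylated RNA of 10 mouse fibroblast populations was sequenced as 50 bp pairs. The authors deposited raw counts by Ensembl identifier, a column for each library. Per the submitters' processing notes the build was GRCm38, and R 4.2.1, STAR 2.7.8a and DESeq2 1.36.0 were used. No source used here states how reads were counted or whether by strand. Names, positions and sequences came from GENCODE M21 on GRCm38, which left 195 identifiers unnamed.

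Counts were tested with edgeR 4.0.16 in R 4.3.3: default expression filter, TMM scaling, group as the only term, robust quasi-likelihood F-tests, Benjamini-Hochberg adjustment over 12964 genes and a threshold of 0.05. All 9 transcripts passed the filter. The high group is the numerator of each log2 fold change, and its SE is the fold change over the root of F. DESeq2 1.42.0 and limma-voom (limma 3.58.1) were alternatives, with other scalings, filters, a replicate block and libraries left out. Log2 count ratios of 36 pairs were compared by two-sided exact permutation over 252 arrangements. Nuclear copies were sought with blastn 2.17.0 (at least 90% identity and 50 bases), leaving out hits on chromosome 18. The code was tested on simulated data. The genes named were the 9 transcripts, mt-Ta, other mitochondrial genes with a mean of at least 10 counts, called genes and the 3 smallest p of each machinery list, RNAs without a long poly(A) tail of at least 1 CPM, and each transcript's nearest genes. The members, lists and rules were chosen with earlier results of these data known. Figures used matplotlib 3.10.9.

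The same replicate numbers appear in both groups. The authors' normalized table was not used here, and no value from the sample sheet entered a test.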

Additional observations from a re-analysis of the deposited data

Results flagged for a closer look

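The ratios of 3 mRNAs to mt-Rnr2 were each set apart in 1 library of the low group, low 1, by the share of the group's range that separated it from the nearest other library. The log2 ratio of mt-Nd4 to mt-Rnr2 was -0.997 in low 1, that of mt-Nd5 to mt-Rnr2 was -0.19 and that of mt-Cytb to mt-Rnr2 was 1.00, all above the other 4 low libraries. These 3 transcripts are neighbours and share their denominator, so the 3 values are not independent. Of 90 groups examined 3 were set apart in this way, where chance alone sets apart about 1 in 20 groups.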

How the results depend on the processing

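The same-numbered libraries deviated together by correlations of -0.05 to 0.46 and 2 of 5 high libraries matched their own number best, so the numbers were not taken as pairs. With the replicate block, the number of transcripts called stayed at 1, but it was mt-Rnr1 (log2 fold change -0.94, adjusted p = 0.0358), with mt-Rnr2 at 1.01 (adjusted p = 0.0737), mt-Nd6 at -0.024 and 1 machinery gene called. The ratio of mt-Rnr2 to mt-Rnr1 under the block had an exact sign-flip p of 0.0625, the smallest 5 pairs can give. With 1 library left out, genes called ran from 232 to 821 (main 630), transcripts called from 0 to 2, machinery genes called from 0 to 2, and pairs whose ratio differed from 0 to 6, the 6 arising without low 5. The mt-Rnr2 to mt-Rnr1 difference then ran from 1.79 to 2.18. It passed without low 5 (2.18, adjusted p = 0.0476) at the same exact permutation p, 0.00794, as with all libraries. mt-Co1 then ran from -0.085 (without high 1) to 0.39 and mt-Nd6 from -0.43 (without high 1) to 0.24, with -0.13 without low 3. Without low 2 and low 3, 56 genes, 0 transcripts and 0 machinery genes were called, with mt-Co1 at -0.088 and mt-Nd6 at -0.24. DESeq2 called 1475 genes and 2 of the transcripts, and 1 machinery gene was called with no filter. mt-Nd6 was at -0.056 with limma-voom. Scaling moved the median gene by at most 0.02. The log2 level per kb of mt-Nd4 was 9.40 over the annotated and 10.9 over the copy-free length. mt-Nd1, mt-Nd2, mt-Nd4, mt-Nd5 and mt-Cytb stayed positive and uncalled in all 19 alternatives, but without high 1 they shrank to 0.13, 0.28, 0.17, 0.07 and 0.34. The causes of these shifts were not tested.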
